A study of Mus musculus with 8 samples.

Results

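Chromatin accessibility around 10 genes of the retinoic acid pathway was examined in mouse embryonic stem cells differentiated for 4 days as embryoid bodies and sorted by flow cytometry. Aldh1a2, Rdh10 and Dhrs3 act in synthesis and retinoid balance, Cyp26a1 and Cyp26b1 in breakdown, Rara, Rarb and Rarg are the receptors, and Crabp1 and Crabp2 are cellular binding proteins. A region of the deposited ATAC-seq table was assigned to a gene when that gene's span was the nearest protein-coding span to the region's midpoint, inside it or within 100 kb. This gave 168 regions of 168842 in the table, of which 150761 had a gene. Rarb had 39 regions, Aldh1a2 26, Cyp26b1 22, Rara 18, Crabp1 14, Cyp26a1 12, Rdh10 10, Dhrs3 10, Rarg 9 and Crabp2 8. All 10 Dhrs3 regions also lay inside the span of Vps13d, and 3 Rara regions inside that of Gm46294, so their signal cannot be given to one gene alone.

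The 8 libraries formed 4 groups of 2. WT_DP and WT_SP were wild-type cells of the A2lox.Cre line that were PDGFRalpha+FLK1+ (DP) or PDGFRalpha-FLK1+ (SP). Etv2KO_DP came from an Etv2 knockout line at the DP gate. Etv2OE_SP came from the iETV2 line at the SP gate, with Etv2 induced by doxycycline at 2 μg/ml from day 2.5. Etv2 is a transcription factor needed for the endothelial and blood lineages. In the knockout and induction comparisons the line, the genotype and, for induction, doxycycline go together and cannot be told apart, and nothing in the labels tells if the pairs of libraries come from separate cultures, so the p-values may cover technical spread alone.

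Retinoic acid is made from retinol by oxidation, first to retinaldehyde by enzymes such as RDH10 and then, in the committed step, by retinaldehyde dehydrogenases such as ALDH1A2, while DHRS3 returns retinaldehyde to retinol and the CYP26 enzymes degrade the acid. Retinoic acid binds nuclear receptors that, paired with retinoid X receptors, occupy DNA elements made of repeated half-sites, and in mesoderm the pathway helps set anterior-posterior position and heart and blood fates. Rarb and Cyp26a1 are classical direct targets with such elements in their promoters.

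Such elements were sought in the promoter windows of RefSeq (GRCm38.p6, the assembly behind mm10), which run from 250 bases before to 50 bases after a start and exist for 8 of the 10 genes. The search was for a DR5 element, a direct repeat of receptor half-sites with 5 bases between them, on both strands. The windows of Rarb and Cyp26a1 are shown because each holds such an element, in capitals.
Rarb promoter (chr14:16575427-16575726, minus strand): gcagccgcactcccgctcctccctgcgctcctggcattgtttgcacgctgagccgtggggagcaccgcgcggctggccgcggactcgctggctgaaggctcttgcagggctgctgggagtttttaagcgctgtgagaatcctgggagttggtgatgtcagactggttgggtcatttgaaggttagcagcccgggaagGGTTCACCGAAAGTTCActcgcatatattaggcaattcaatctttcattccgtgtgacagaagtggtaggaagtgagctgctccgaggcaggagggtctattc
Cyp26a1 promoter (chr19:37697558-37697857, plus strand): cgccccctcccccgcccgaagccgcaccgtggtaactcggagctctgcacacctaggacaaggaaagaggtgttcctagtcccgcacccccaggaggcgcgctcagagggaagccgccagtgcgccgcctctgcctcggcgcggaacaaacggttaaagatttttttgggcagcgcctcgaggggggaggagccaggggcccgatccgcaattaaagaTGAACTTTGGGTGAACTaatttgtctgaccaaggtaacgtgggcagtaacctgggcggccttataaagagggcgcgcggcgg
A DR5 element was present in 32 of 32851 windows of all genes, or 0.0974%. In Rarb it began 53 bases before the start and in Cyp26a1 32 bases before it, and both elements lay inside a measured region. No member window held a DR2 element (0.268% of all windows), a DR1 element (0.222%) or either of the ETS-type octamers CAGGAAGT (3.33%) and CCGGAAGT (3.89%), which speaks only of these letters in these windows.

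Values are reads per region divided by 1 factor per library, as the authors deposited them, here called normalized reads. In the 7 libraries where whole reads could be taken back from these values there were 12477601 to 18853733 reads in regions, with a median of 27 to 42 reads per region. In the knockout, 2 of the 3 regions of Etv2 held 0 or 1 read over both libraries and the third held 200 and 193 normalized reads against 133 and 110 in WT_DP. The regions of the sort gene Pdgfra summed to 2179 and 2327 normalized reads in WT_DP and 1704 and 1604 in WT_SP. They summed to 2369 and 2145 in Etv2KO_DP and 1244 and 1587 in Etv2OE_SP. Those of the sort gene Kdr gave 3715 and 3849, 3637 and 3677, 4295 and 4280, and 3990 and 5417 in the same order. Neither sum was called in any comparison by the test described below. Summed regions of 5 endothelial markers gave 7077 to 10503 in Etv2OE_SP and 4687 to 4850 in WT_SP. Those of 4 cardiac markers gave 1494 to 2329 and 3620 to 3688, and those of 3 paraxial mesoderm markers 1422 to 2017 and 2447 to 2483. The sums of 4 hematopoietic markers overlapped, at 7458 to 11195 and 10348.5 to 10499.7. So did those of neuroectoderm (4709 to 5069 and 4936 to 5160) and endoderm markers (4019 to 4655 and 3812 to 4042). Pluripotency markers gave 1443 to 1497 and 1827 to 1878. The endothelial sum was 3958 to 4098 in WT_DP, below WT_SP, and 3419 to 3457 in the knockout. The paraxial sum was 2396 to 2538 in the knockout against 2713 to 2869 in WT_DP, and the hematopoietic sum 7890 to 8202 against 8672 to 8760. The cardiac sum went the other way, at 4175 to 4338 in the knockout against 3969 to 4076. The induced libraries also stood apart as replicates. Their chi-square per degree of freedom was 4.32, against 1.15 in WT_DP and 1.22 in Etv2KO_DP, and replicate 1 lay below 50% of replicate 2 in 14.9% of member regions and 11.99% of all tested regions. The part of these cell-type and replicate differences in the results that follow was not tested, and less accessibility per cell cannot be told apart from fewer cells with an open region.

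Of the 168 regions, 165 passed the filter on low values and were tested with limma on log2(value + 5), with Benjamini-Hochberg adjustment over all 167573 regions. Between the wild-type gates, 9 were higher and 14 lower in WT_SP than in WT_DP, where 6.2% and 8.12% of all regions were called. In the knockout, 8 were higher and 5 lower than in WT_DP, where 1.72% and 2.21% of all were called. With induced Etv2, 19 were higher and 65 lower than in WT_SP, where 16.6% and 31.9% of all were called. The members' shares were 5.45% and 8.48%, 4.85% and 3.03%, and 11.5% and 39.4% in the same order. The median member log2 change was 0.00, -0.03 and -0.45, beside 0.11, -0.07 and -0.22 over all regions. On summed signal, 0 genes were higher and 2 lower between the gates (4.46% and 2.88% of all genes), 1 was higher and 0 lower in the knockout (2.04% and 5.31%), and 2 were higher and 4 lower with induced Etv2 (9.27% and 24.6%). The 7 regions over a promoter window gave no call between the gates (2.9% higher and 1.44% lower of all such regions), 1 lower in the knockout (0.683% and 2.45%) and 3 lower with induced Etv2 (6.6% and 18.1%). Comparisons that share WT_DP or WT_SP are not independent of each other. Median-of-ratios rescaling brought the median of all regions with induced Etv2 to -0.0037 and gave 29 higher and 56 lower member regions there (17.6% and 33.9%, beside 23.3% and 25.4% of all regions). In the knockout it gave 12 higher and 3 lower (7.27% and 1.82%, beside 2.58% and 2.31%).

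**Figure D1:**
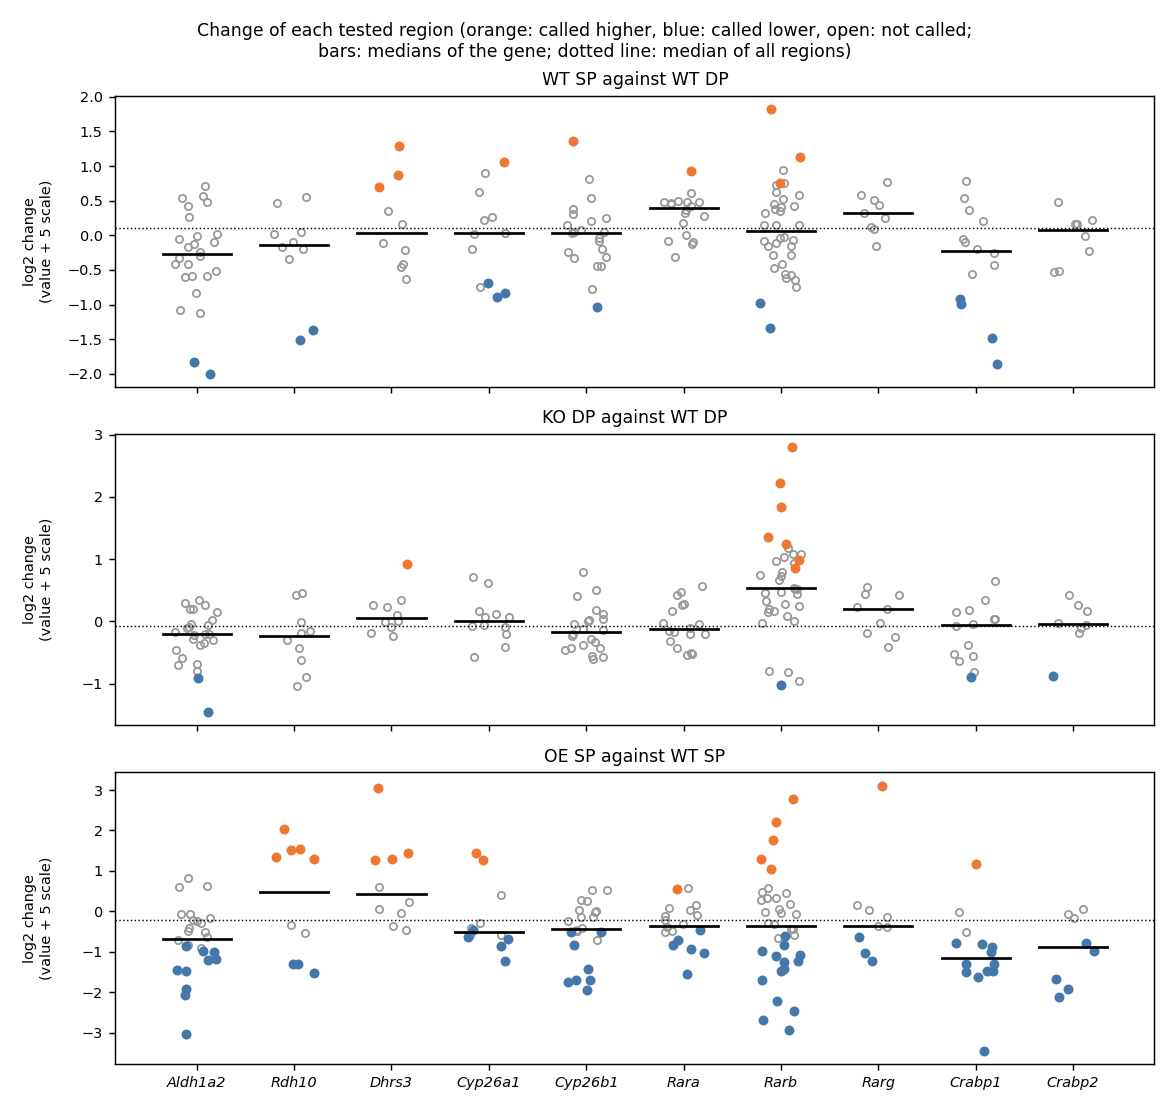
Log2 change of each tested region (vertical axis, log2(value + 5) scale) for the 10 genes (horizontal axis) in the 3 comparisons, with called regions filled. In the knockout 7 of the 8 regions called higher belong to Rarb, and with induced Etv2, at the deposited scaling, the called regions of Dhrs3 lie above 0 while those of Aldh1a2, Cyp26b1 and Crabp2 lie below.

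Among the synthesis genes, Aldh1a2 was less accessible in WT_SP than in WT_DP and lower again with induced Etv2. Its summed signal was 1563 and 1540 normalized reads in WT_DP, 1075 and 1162 in WT_SP, 1156 and 1174 in Etv2KO_DP, and 577 and 683 in Etv2OE_SP. The 2 wild-type gates did not overlap, WT_SP and the knockout overlapped, and both induced libraries were the lowest. The log2 change was -0.47 ± 0.13 (SE) in WT_SP against WT_DP (limma over all genes, adjusted p = 0.0295), where 2.88% of all genes were called lower, and -0.83 ± 0.13 with induced Etv2 (adjusted p = 6.38e-05), where 24.6% were. The first call was lost when any 1 library of the 4 was left out. In the knockout the change of -0.41 did not pass (adjusted p = 0.0540), but it did in 6 of 13 alternatives, which were the 3 rescalings (median-of-ratios, on the 10000 highest regions, and quantile normalization), the fit of the compared groups alone, edgeR and DESeq2.

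Some regions of Aldh1a2 were called lower, 2 of 26 between the gates (7.69%, beside 8.12% of all regions) and 10 of 26 with induced Etv2. At chr9:71231959-71232359, inside the gene and 16370 bp past the start, the values were 151 and 161 in WT_DP, 30.5 and 40.6 in WT_SP, 94.0 and 95.1 in Etv2KO_DP, and 7.29 and 2.63 in Etv2OE_SP. Each group stood clear of the others. The region fell 4.39-fold between the gates (log2 -2.00 ± 0.26, adjusted p = 0.000682) and by a further 7.17-fold with induced Etv2 (log2 -2.06 ± 0.26, adjusted p = 6.20e-05), calls that held under all 15 alternatives run for each. The gene's strongest region, chr9:71230025-71230425, had 250 and 285 in WT_SP but 11.7 and 60.4 with induced Etv2, a log2 change of -3.04 ± 0.43 (adjusted p = 0.000150) that was -2.05 without induced replicate 1 and -4.03 without replicate 2. The 10 regions lower with induced Etv2 are 38.5% of the gene's, beside 31.9% of all regions. None was called higher at the deposited scaling, but 2 were with median-of-ratios rescaling and with edgeR, and 1 with quantile normalization and with rescaling on the 10000 highest regions.

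At the promoter of Aldh1a2 the pattern was different. The region chr9:71215440-71215840 had 258 and 238 in WT_DP, 252 and 226 in WT_SP, 140 and 120 in Etv2KO_DP, and 204 and 205 in Etv2OE_SP. The knockout libraries were the only ones below 200. The change against WT_DP was -0.91 ± 0.16 (adjusted p = 0.0102), a call lost when any 1 library of the 2 groups was left out. It was also the only one of the 7 member regions over a promoter window that was called in the knockout, where 2.45% of all such regions were called lower.

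Rdh10 moved in both directions with induced Etv2. Its summed signal was 388 and 405 in WT_DP, 266 and 297 in WT_SP, 313 and 291 in Etv2KO_DP, and 500 and 482 in Etv2OE_SP, so the induced libraries were the highest and the WT_SP and knockout libraries overlapped at the low end. It was lower in WT_SP than in WT_DP (log2 -0.49 ± 0.12, adjusted p = 0.0217, lost when any 1 library was left out) and higher with induced Etv2 (0.79 ± 0.12, adjusted p = 7.72e-05), where 9.27% of all genes were called higher. Of its 10 regions, 5 were higher and 3 lower with induced Etv2 (50% and 30%, beside 16.6% and 31.9% of all regions). A rise and a fall lay within a few kb of each other on the same side of the gene, 45251 bp and 40768 bp outside its span. At chr1:16177601-16178001 the values were 27.5 and 22.8 in WT_SP and 136 and 101 in Etv2OE_SP, and the region rose 4.72-fold (log2 2.03 ± 0.24, adjusted p = 4.16e-05). At chr1:16173118-16173518 they were 70.9 and 61.1 in WT_DP, 19.3 and 25.8 in WT_SP, and 5.84 and 6.57 in Etv2OE_SP, and the region fell in both comparisons (log2 -1.37 ± 0.24, adjusted p = 0.00323, lost without replicate 1 of WT_DP or of WT_SP, and -1.29 ± 0.24, adjusted p = 0.000818, lost with DESeq2). The largest fall of a Rdh10 region with induced Etv2 was -1.52, at chr1:16136513-16136913. The region at the lower-coordinate end of Rdh10, 1091 bp outside its span, belongs to Rpl7 under the nearest-span rule and is not counted here. It held more normalized reads than the whole Rdh10 sum in every library. The values were 734 and 732 in WT_DP, 912 and 913 in WT_SP, and 596 and 717 in Etv2OE_SP. Its change was 0.31 between the gates (limma, adjusted p = 0.157) and -0.48 with induced Etv2 (adjusted p = 0.0139), both opposite in sign to the Rdh10 sum. The changes of the Rdh10 sum therefore depend on this rule.

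Dhrs3, whose enzyme lowers retinaldehyde, rose with induced Etv2. Its sums were 755 and 728 in WT_DP, 841 and 854 in WT_SP, 857 and 844 in Etv2KO_DP, and 1583 and 1845 in Etv2OE_SP. The induced libraries were far above the rest, and the WT_SP and knockout libraries overlapped. The log2 change with induced Etv2 was 1.01 ± 0.12 (adjusted p = 6.55e-06). At the deposited scaling 4 of its 10 regions were higher there and none lower (40% and 0%, beside 16.6% and 31.9% of all regions). At chr4:144903886-144904286, 10949 bp past the start, values were 21.4 and 21.6 in WT_DP, 41.7 and 45.6 in WT_SP, 24.4 and 19.0 in Etv2KO_DP, and 360 and 436 in Etv2OE_SP. Signal was low in both DP groups, higher in WT_SP (a call lost without any 1 library, with edgeR and with DESeq2) and 9.11-fold higher again with induced Etv2 (log2 3.04 ± 0.21, adjusted p = 3.76e-06, kept under all 15 alternatives). The region chr4:144898253-144898653, the gene's strongest, had 158 and 128 in WT_DP and 275 and 274 in Etv2KO_DP, a rise of 0.92 ± 0.18 (adjusted p = 0.0130) that was lost without any 1 library, and it reached 517 and 665 in Etv2OE_SP. Its promoter region was called in no comparison.

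**Figure D2:**
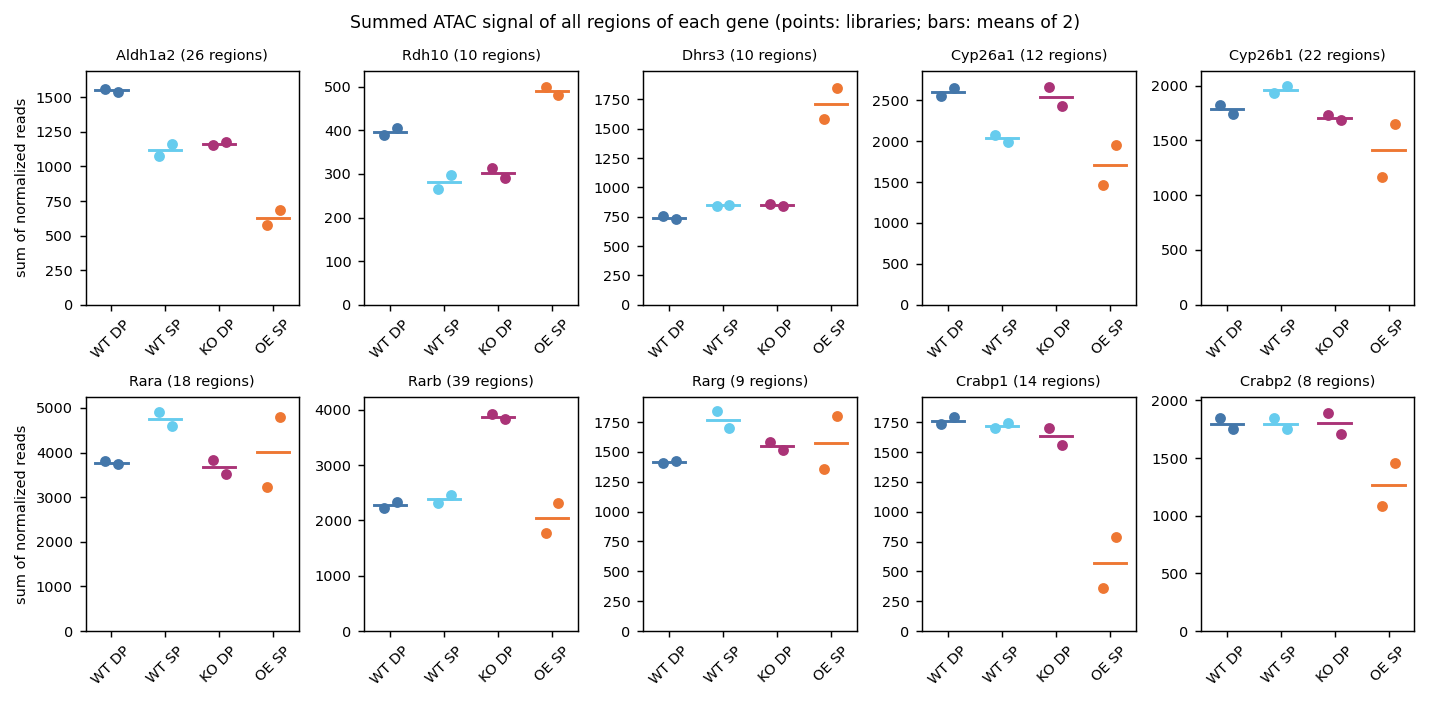
Summed normalized reads over all regions of each gene (vertical axes, from 0) in the 8 libraries by group, with bars at the mean of 2. Aldh1a2, Crabp1 and Crabp2 are lowest in Etv2OE_SP, Dhrs3 and Rdh10 highest there, and Rarb highest in Etv2KO_DP, with 3925 and 3827 normalized reads.

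Of the breakdown enzymes, Cyp26a1, which clears retinoic acid in the early embryo, changed region by region. Of its 12 regions, 5 were lower and 2 higher with induced Etv2 (41.7% and 16.7%, beside 31.9% and 16.6% of all regions). Between the gates 3 were lower and 1 higher (25% and 8.33%, beside 8.12% and 6.2%). None was called in the knockout, beside 2.21% lower and 1.72% higher of all regions. Its summed signal did not pass in any comparison, but the change of -0.35 between the gates (adjusted p = 0.133) passed in 6 of 13 alternatives, the same 6 as for Aldh1a2 in the knockout, and that with induced Etv2 (-0.27) passed without Etv2OE_SP replicate 2. Its strongest region, chr19:37719241-37719641, 17905 bp outside the gene, had 906 and 926 in WT_DP, 490 and 497 in WT_SP, 1048 and 889 in Etv2KO_DP, and 263 and 353 in Etv2OE_SP. Both DP groups were high and overlapped, and the induced libraries were the lowest. The change was -0.89 ± 0.17 between the gates (adjusted p = 0.00482, lost without any 1 library) and -0.68 ± 0.17 with induced Etv2 (adjusted p = 0.00464, lost with DESeq2). A second distal region, chr19:37739974-37740374, fell between the gates (248.5 and 295.5 to 161 and 141, a call lost without replicate 2 of WT_DP or of WT_SP and with DESeq2) but was highest with induced Etv2, at 366 and 380 (log2 1.28 ± 0.16, adjusted p = 6.94e-05). Just past the start, chr19:37698705-37699105 was higher in WT_SP (120 and 126) than in WT_DP (52.4 and 60.2), with a change of 1.06 ± 0.19 (adjusted p = 0.00346, lost without WT_DP replicate 1 and with DESeq2). The region that holds the DR5 element had 389 and 392 in WT_DP, 349 and 331 in WT_SP, 301 and 282 in Etv2KO_DP, and 240 and 254 in Etv2OE_SP, and its change of -0.45 ± 0.15 with induced Etv2 passed (adjusted p = 0.0226).

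Cyp26b1, another retinoic acid hydroxylase, had 1 region higher and 1 lower between the gates (4.55% each, beside 6.2% and 8.12% of all regions). The gene fell with induced Etv2. Its summed signal was 1929 and 1995 in WT_SP and 1171 and 1652 in Etv2OE_SP (log2 -0.49 ± 0.15, adjusted p = 0.0157), a call lost when either WT_SP library was left out, with the compared groups alone and with DESeq2. None of its 22 regions was called in the knockout, where 8 were higher than 0 and 5 had an unadjusted p under 0.05. With induced Etv2, 8 regions (36.4%, beside 31.9% of all) were lower and none was higher at the deposited scaling, against 6 lower and 3 higher under each of the 3 rescalings. At chr6:84571063-84571463, at the far end of the gene, the values were 67.2 and 68.4 in WT_SP and 14.6 and 21.0 in Etv2OE_SP, a 3.81-fold fall (log2 -1.69 ± 0.22, adjusted p = 9.27e-05).

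Among the receptors, Rarb was higher in the knockout. RARB is a receptor whose gene is itself switched on by retinoic acid. Its summed signal was 2222 and 2334 in WT_DP, 2312 and 2467 in WT_SP, 3925 and 3827 in Etv2KO_DP, and 1780 and 2314 in Etv2OE_SP. The knockout libraries were clear of all others, and the other 3 groups overlapped. The log2 change against WT_DP was 0.77 ± 0.15 (adjusted p = 0.00355), where 2.04% of all genes were called higher. The call was kept without WT_DP replicate 2 and lost without any other of the 4 libraries.

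Within Rarb, 7 of 36 tested regions were higher in the knockout and 1 was lower (19.4% and 2.78%, beside 1.72% and 2.21% of all regions). The median change was 0.53. Leaving out any 1 of the 4 libraries left 3 higher, while the count over all regions went from 2881 to between 473 and 649. At chr14:16448709-16449109, inside the gene, values were 48.5 and 60.2 in WT_DP, 88.5 and 101 in WT_SP, 296 and 250 in Etv2KO_DP, and 60.5 and 97.2 in Etv2OE_SP. The knockout libraries were above all 6 others. The rise was 5.02-fold (log2 2.23 ± 0.23, adjusted p = 0.000239) and was kept under all 15 alternatives. The region chr14:16572794-16573194, 2482 bp past the start, had 78.6 and 95.2 in WT_DP and 318 and 326 in the knockout (log2 1.84 ± 0.23, adjusted p = 0.000932), and chr14:16758470-16758870 had 1.94 and 9.88 against 64.7 and 66.6 (log2 2.80 ± 0.36, adjusted p = 0.00115). The promoter region with the DR5 element did not pass there, with 190 and 202 in WT_DP and 221 and 247 in the knockout (log2 0.25, adjusted p = 0.452).

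The surroundings of Rarb moved in the same comparison. Of 74 tested regions of other assignment within 1 Mb of its span, 12 were higher and 2 lower in the knockout, beside 1.72% and 2.21% of all regions. The median change of the 74 was 0.20. Of these 14 called regions, 5 were assigned to Thrb, 2 to Lrrc3b and 7 to no gene within 100 kb. For no other member were more than 3 neighbouring regions higher in the knockout, out of 72 to 330 tested. The part of this wider shift in the Rarb result was not tested.

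**Figure D3:**
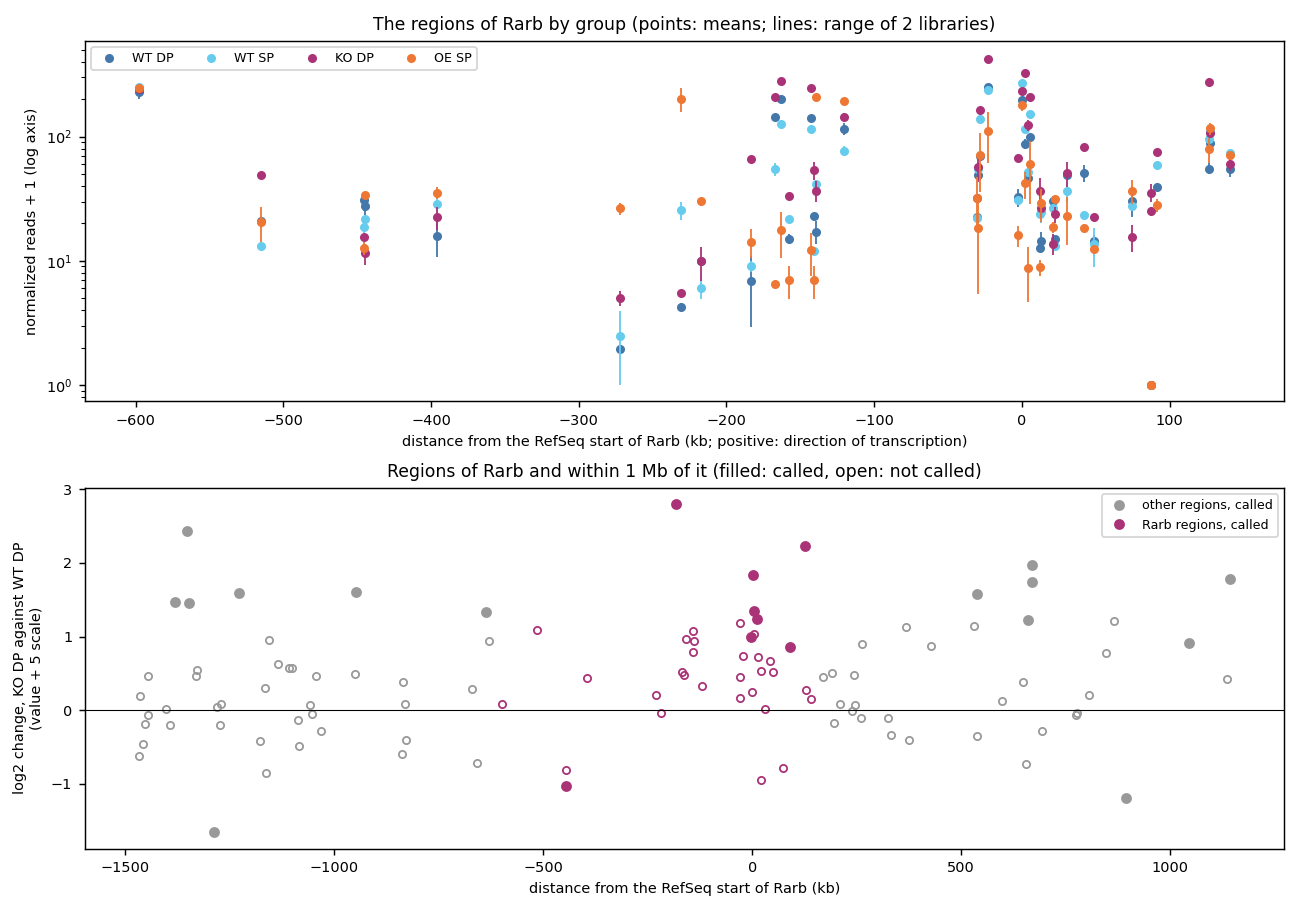
Top, normalized reads + 1 (log axis) of the 39 Rarb regions by distance from the RefSeq start in kb, as group means with the range of 2 libraries. Bottom, log2 change in Etv2KO_DP against WT_DP for Rarb and for regions within 1 Mb of it, with called regions filled: 7 Rarb regions and 12 others were called higher.

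With induced Etv2, 5 Rarb regions were higher and 14 lower (13.9% and 38.9%, beside 16.6% and 31.9% of all regions). The summed signal did not pass (log2 -0.23, adjusted p = 0.242, passed without Etv2OE_SP replicate 2). The region chr14:16742184-16742584 had 140 and 146 in WT_DP, 46.8 and 60.5 in WT_SP, 220 and 196 in Etv2KO_DP, and 5.84 and 5.26 in Etv2OE_SP. It was highest in the DP groups and nearly closed in the induced cells. It fell between the gates (log2 -1.35 ± 0.20, adjusted p = 0.00164) and by 9.67-fold with induced Etv2 (log2 -2.47 ± 0.20, adjusted p = 6.61e-06), and all 15 alternatives kept both calls. The opposite held at chr14:16806187-16806587, with 2.91 and 3.59 in WT_DP, 20.4 and 28.8 in WT_SP, 4.20 and 4.75 in Etv2KO_DP, and 158 and 244 in Etv2OE_SP, a rise of 2.79 ± 0.28 with induced Etv2 (adjusted p = 1.66e-05). This region was named after its values were seen.

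Rara, the most widely expressed of the receptors, and Rarg passed on summed signal in no comparison. Between the gates both passed with quantile normalization and with the compared groups alone, with induced Etv2 both passed without Etv2OE_SP replicate 2, and in the knockout Rarg passed with quantile normalization and with rescaling on the highest regions. The regions of Rara had a median change of 0.40 in WT_SP against WT_DP, beside 0.11 over all regions. Of its 18 regions, 1 was called higher (5.56%, beside 6.2% of all regions). That region, chr11:98963424-98963824, had 498 and 403 in WT_DP and 912 and 806 in WT_SP (log2 0.93 ± 0.23, adjusted p = 0.0182), a call lost when any 1 of the 4 libraries was left out and with DESeq2. With induced Etv2, 6 Rara regions were lower and 1 higher (33.3% and 5.56%, beside 31.9% and 16.6% of all regions). At chr11:98940746-98941146 the values were 120 and 160 in WT_SP and 46.7 and 42.0 in Etv2OE_SP, a 3.15-fold fall (log2 -1.54 ± 0.20, adjusted p = 7.39e-05). Rarg, a receptor also expressed in early mesoderm, had 1 region that rose: chr15:102240572-102240972, inside the gene, had 16.5 and 11.7 in WT_DP, 21.4 and 34.7 in WT_SP, 24.4 and 21.4 in Etv2KO_DP, and 219 and 343 in Etv2OE_SP. The induced libraries were far above the other 6, and the rise was 10.02-fold (log2 3.11 ± 0.28, adjusted p = 1.01e-05, kept under all 15 alternatives). Of the other 8 regions of Rarg, 3 were lower with induced Etv2. The shares over its 9 regions were 33.3% lower and 11.1% higher, beside 31.9% and 16.6% of all regions.

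Most regions of the binding proteins fell with induced Etv2, with 16 of 22 lower and 1 higher (72.7% and 4.55%, beside 31.9% and 16.6% of all regions). CRABP1 is thought to hold retinoic acid in the cytosol and promote its breakdown, and CRABP2 to carry it to the receptors. The summed signal of Crabp1 was 1733 and 1797 in WT_DP, 1700 and 1744 in WT_SP, 1704 and 1558 in Etv2KO_DP, and 357 and 788 in Etv2OE_SP. The 3 other groups overlapped and the induced libraries lay far below them and apart from each other. The log2 change was -1.69 ± 0.22 (adjusted p = 1.49e-05). Its strongest region, chr9:54783985-54784385, 11075 bp outside the gene, had 1009 and 1040 in WT_SP but 19.0 in induced replicate 1 and 371 in replicate 2. The change of -3.44 ± 0.82 (adjusted p = 0.00422) therefore had a wide error, ranged from -5.42 to -1.45 over the alternatives and did not pass with DESeq2. A steadier fall was seen at chr9:54805832-54806232, 32922 bp outside the gene, with 92.6 and 104 in WT_SP and 27.0 and 36.8 in Etv2OE_SP (log2 -1.50 ± 0.19, adjusted p = 8.47e-05). Between the gates 4 of 14 Crabp1 regions were lower in WT_SP (28.6%, beside 8.12% of all regions). The one of lowest adjusted p, chr9:54817508-54817908, 44598 bp outside the gene, had 105 and 127 in WT_DP and 25.4 and 30.7 in WT_SP (log2 -1.87 ± 0.28, adjusted p = 0.00168).

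The summed signal of Crabp2 was 1848 and 1749 in WT_SP and 1083 and 1457 in Etv2OE_SP (log2 -0.52 ± 0.15, adjusted p = 0.0104), a call lost when either WT_SP library was left out and with the compared groups alone. Its 5 lower regions (62.5%, beside 31.9% of all regions) were clearer than the sum. At chr3:87953411-87953811, next to the gene's end, values were 125 and 107 in WT_SP and 19.7 and 26.3 in Etv2OE_SP, a 5.05-fold fall (log2 -2.12 ± 0.20, adjusted p = 1.18e-05). The region chr3:87958160-87958560, 4988 bp outside the gene, had 247 and 267 in WT_DP, 252 and 255 in WT_SP, 139 and 134 in Etv2KO_DP, and 68.6 and 84.1 in Etv2OE_SP. It was lower in the knockout (log2 -0.88 ± 0.17, adjusted p = 0.0142, lost without any 1 library) and lower with induced Etv2 (-1.68 ± 0.17, adjusted p = 1.87e-05). The strongest region, chr3:87960795-87961195, 7623 bp outside the gene, passed in no comparison at the deposited scaling, with 594 to 833 in all 8 libraries. It was called higher with induced Etv2 under the 3 rescalings.

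**Figure D4:**
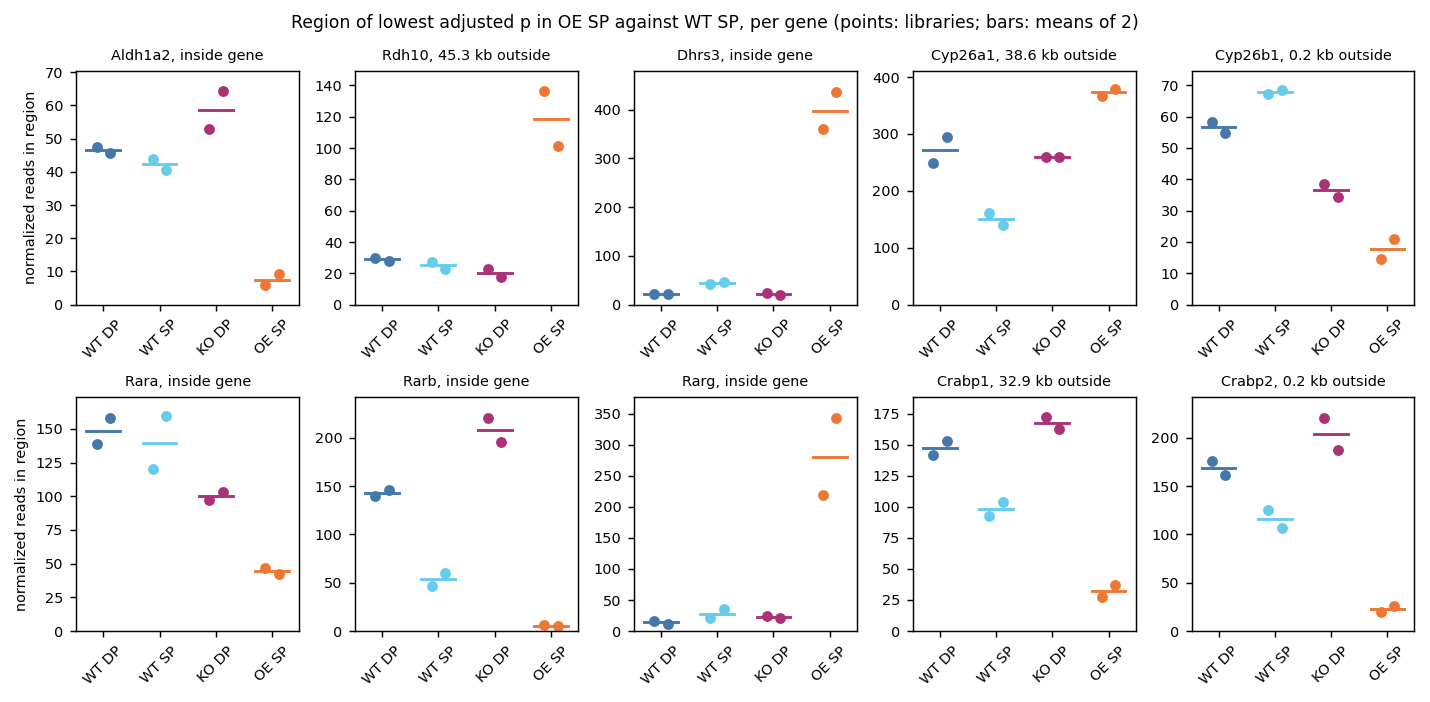
Normalized reads (vertical axes, from 0) in the 8 libraries for the region of each gene with the lowest adjusted p in Etv2OE_SP against WT_SP, with bars at the mean of 2. Rdh10, Dhrs3, Cyp26a1 and Rarg have regions highest in Etv2OE_SP, and the other 6 genes have regions lowest there, such as 5.84 and 5.26 normalized reads in Rarb.

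The other genes of the pathway, 29 genes with 459 tested regions, gave 35 higher and 32 lower regions between the gates (7.63% and 6.97%, beside 6.2% and 8.12% of all regions). They gave 12 and 6 in the knockout (2.61% and 1.31%, beside 1.72% and 2.21%) and 56 and 188 with induced Etv2 (12.2% and 40.96%, beside 16.6% and 31.9%). The regions named here are those of lowest adjusted p, and other regions of the same genes moved otherwise. With induced Etv2, Rxra, the partner of the receptors, had a region 35308 bp outside it at 456 and 472 in WT_SP and 49.6 and 74.9 in Etv2OE_SP (log2 -2.83 ± 0.18, adjusted p = 3.25e-06). Of the 47 regions of Rxra, 27 were lower and 5 higher, up to 2.93. Stra6, the retinol uptake receptor, had one at 104 and 109 and at 18.2 and 19.7 (log2 -2.22 ± 0.18, adjusted p = 5.88e-06), among 7 of 15 lower and none higher. Between the gates, Hoxb1, a target of retinoic acid, had one 42423 bp outside it that was 10.7 and 10.8 in WT_DP and 82.4 and 75.3 in WT_SP (log2 2.41 ± 0.28, adjusted p = 0.000407). However, 3 of the 17 Hoxb1 regions were lower there and no other was higher. In the knockout, Ncoa2, a receptor coactivator, had one at 8.74 and 18.0 in WT_DP and 428 and 452 in Etv2KO_DP (log2 4.65 ± 0.30, adjusted p = 7.43e-06), among 3 of 36 higher and 2 lower.

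Crabp1 and Aldh1a2 had the widest ranges of group means among the members. Over the 8 libraries and 17255 genes, the non-member genes whose summed signal lay closest to that of Crabp1 after centring were Ifitm10, Sag and Pdlim4, with root-mean-square log2 differences of 0.0610, 0.0970 and 0.106. For Aldh1a2 they were Stau2, Chst10 and Atp8b5, with 0.0768, 0.0822 and 0.0868.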

How the data were processed

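ATAC-seq libraries were made by the Omni-ATAC protocol from 50000 sorted live cells each, per the labels' protocols. Per the submitters' processing notes, Bowtie2, MACS2, DiffBind 3.14.1 and build mm10 were used, without a stated role. The authors deposited 1 signal value per region and library, reads divided by 1 factor per library. The sources used here do not state how the factor was set, how peaks were called or how Tn5 offsets and duplicates were treated.

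Regions with a mean of at least 10 (167573) were tested with limma 3.58.1 (R 4.3.3) on log2(value + 5), 4 group means over 8 libraries, trended variance, Benjamini-Hochberg adjustment, called at 0.05. Fold changes on this scale understate changes of low regions. Sums per gene were tested alike over 18584 genes. Genes came from RefSeq spans. Named regions were, per gene, the one of highest mean and, per comparison, the called one of lowest adjusted p. Not all of them are described above, and the counts of calls on named regions include those left out. Others named were chosen after their values were seen. The members and lists were chosen with earlier results of these data known.

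In 7 libraries 100% of values were whole reads within 0.01 read, so edgeR 4.0.16 and DESeq2 1.42.0 were run on those reads as alternatives. In WT_SP replicate 2 a check of this recovery did not pass, because 1 read is worth close to 1 unit there. That library was left out of the count tests, so WT_SP then has 1 library, assumed to vary like the other groups. On simulated WT_SP against WT_DP data of 167573 regions, limma recovered 42% of log2 changes of 1 and 93% of 2, with 8 false calls. Only 100 regions of each size were changed there, and every group had the same spread. The real data have far more calls and a wider spread in the induced libraries, so these figures need not hold for them. Replicate numbers did not pair the samples.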

Additional observations from a re-analysis of the deposited data

Results flagged for a closer look

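Of the 3 Rarb regions that stayed below the filter on low values and so entered no main comparison of single regions, though they are part of the gene's sum, 2 had signal in Etv2KO_DP alone. The regions chr14:16487550-16487950 and chr14:16488040-16488440, inside the gene, were at 0 in all 6 libraries of the other groups. Their mean in Etv2KO_DP was 24.0 (21.8 and 26.2 normalized reads) and 34.4 (40.3 and 28.5). Against WT_DP these are at least 16.9-fold and 25.3-fold higher, taking a floor of 3 reads over the group. With no filter on low values both were called higher in the knockout (limma, adjusted p = 0.000399 and 0.000151). Regions at 0 in every other library can be in the table only through the knockout libraries. Their direction was thus fixed in advance, and these folds and calls add no support to the rise at Rarb. The third, chr14:16847332-16847732, had a mean of 25.4 in Etv2OE_SP (28.5 and 22.3) and 0 to 4.75 in the other 6 libraries.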

How the results depend on the processing

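The 2 libraries per group, the 27 to 42 reads in a median region and the spread of the induced replicates limit what could be called. Of the calls on named regions, 3 of 13 between the gates, 1 of 5 in the knockout and 16 of 24 with induced Etv2 held in every alternative run, and of the calls on summed signal 0 of 2, 0 of 1 and 4 of 6 did. None changed direction. Where not stated, the cause of a change was not tested.

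Counts of member regions are given as higher and lower. The shares over all regions moved with the settings too. Over the alternatives that keep all libraries or use the 7 with reads, the members' shares were 0.833% to 23.6% and 4.17% to 18.8% between the gates (all regions 1.14% to 22.4% and 2.9% to 15.5%), 2.42% to 18.2% and 0% to 16.97% in the knockout (0.79% to 8.89% and 0.484% to 13.1%), and 9.09% to 17.6% and 11.5% to 45.5% with induced Etv2 (9.19% to 23.3% and 9.69% to 37.1%). Fitting the compared groups alone gave 39 and 31 between the gates (23.6% and 18.8%, beside 22.4% and 15.5% of all regions) and 30 and 28 in the knockout (18.2% and 16.97%, beside 8.89% and 13.1%). The edgeR counts were 4 and 12, 10 and 2, and 22 and 34 in the 3 comparisons, and the DESeq2 counts 1 and 5, 5 and 0, and 15 and 19 (no knockout region lower, 50 of 165 at an unadjusted p under 0.05 with limma in either direction). In the knockout, a pseudocount of 1 gave 4 and 2 (2.42% and 1.21%, beside 1.14% and 1.58% of all regions). One of 20 gave 13 and 10 (7.88% and 6.06%, beside 2.63% and 3.2%). A minimum mean of 30 gave 5 and 2 (4.55% and 1.82%, beside 1.46% and 2.62%), and quantile normalization 19 and 8 (11.5% and 4.85%, beside 3.46% and 3.39%). Rescaling on the 10000 highest regions gave 16 and 4 (9.7% and 2.42%, beside 3.12% and 2.64%), and median-of-ratios rescaling 12 and 3 (7.27% and 1.82%, beside 2.58% and 2.31%). The latter gave 29 and 56 with induced Etv2 (17.6% and 33.9%, beside 23.3% and 25.4%). Rescaling on the highest regions gave 8 and 25 between the gates (4.85% and 15.2%, beside 4.3% and 12.4%). Regions within 10 kb of a gene gave 8 and 5 between the gates and 8 and 3 in the knockout. Giving tied regions to the shortest span, an alternative chosen after seeing the data, gave 18 and 64 with induced Etv2. For it and for the 10 kb limit no share of all regions is given. That WT_SP replicate 2 is left out of the count tests was also decided after seeing the data.

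The replicate block gave 6 and 2 in the knockout (3.64% and 1.21%, beside 1.62% and 1.85% of all regions). It changed no other count of member calls by over 1.5 times. Same-numbered libraries correlated at -0.0038 to 0.056, so the numbers were not used as pairs. Leaving out 1 library at a time left 1 library in a group, so no counts of calls are given for these fits. Between the gates and in the knockout, fewer regions were then called among the members and over all regions alike. Calls given above as lost without 1 library should be read beside that wider loss. With induced Etv2, fewer of all regions were called without a WT_SP library, and more were called lower without an Etv2OE_SP library.

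On summed signal, leaving out 1 library likewise left 1 library in a group, so no counts are given. Fewer of all genes were then called between the gates and in the knockout. Quantile normalization gave 2 higher and 3 lower genes between the gates (8.56% and 11% of all genes), and 3 and 1 in the knockout (9.2% and 9.12%). The compared groups alone gave 4 and 3 between the gates (50.4% and 10.9% of all genes). They gave 2 and 2 in the knockout (8.61% and 27.3%), and 2 and 2 with induced Etv2 (6.91% and 16.3%). Rescaling on the highest regions gave 0 and 4 between the gates (3.31% and 14.7%), and 3 and 1 in the knockout (7.92% and 8.36%). In the knockout, median-of-ratios rescaling and edgeR each gave 2 and 1 (5.85% and 8.29%, and 7.29% and 6.04%), and DESeq2 1 and 1 (4.36% and 2.64%).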
